A study of Mus musculus with 96 samples.

Results

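Genes of the opioid and tachykinin peptide systems were followed, by gene symbol, through 96 RNA sequencing libraries of mouse striatum and cerebral cortex. They were 9 of the 48795 genes counted: the peptide precursors Penk, Pdyn, Tac1 and Cartpt, the opioid receptors Oprm1, Oprd1 and Oprk1, and the tachykinin receptors Tacr1 and Tacr3. The mice, 48 in all on a C57BL/6 background, were 6 months old and gave both tissues. Q140 mice were heterozygous for a knock-in allele of Htt, the gene whose expanded CAG repeat causes Huntington's disease. They were set against wild-type mice, Q140 Msh6+/- mice against Msh6+/- mice, and Q140 Msh6-/- mice against Msh6-/- mice. Each of the 6 genotypes had 8 mice, 4 females and 4 males. Msh6 encodes a subunit of the complex that recognises DNA mismatches, and the cross asks whether its loss alters what Q140 does. The knock-in allele is carried by all cells of these mice, and the tissues were dissected whole.

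Most striatal neurons are inhibitory projection neurons of a pair of classes. Those of the indirect pathway, which carry dopamine D2 receptors, make proenkephalin (Penk), and those of the direct pathway, which carry D1 receptors, make the precursors of dynorphin (Pdyn) and of substance P (Tac1). Enkephalins act mainly on the delta (Oprd1) and mu (Oprm1) opioid receptors and dynorphins on the kappa receptor (Oprk1), all of which signal through inhibitory G proteins. Substance P acts on the NK1 receptor (Tacr1), found on striatal interneurons, and the related peptide neurokinin B on the NK3 receptor (Tacr3). Cartpt encodes the precursor of the CART peptides.

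The genes lie on GRCm38 at chr4:4133531-4138819 (Penk), chr2:129686565-129699844 (Pdyn), chr6:7554879-7565834 (Tac1), chr13:99898489-99901091 (Cartpt), chr10:6758506-7038198 (Oprm1), chr4:132110726-132144486 (Oprd1), chr1:5588466-5606131 (Oprk1), chr6:82402334-82560104 (Tacr1) and chr3:134829007-134934579 (Tacr3). Transcription of the opioid and tachykinin precursors is known to respond to cAMP through the cAMP response element, whose letters are TGACGTCA. The RefSeq promoter table (GRCm38.p6, 250 bases before each start) held 7 of the 9 genes. It was searched on both strands for the full element, for the variant TGCGTCA, for the core CGTCA that lies inside both, for the AP-1 motif TGANTCA and for TATAAA. The windows below hold the full element (Cartpt), the variant (Tac1), the core (Tacr1) and the core with TATAAA (Tacr3). Each is written 5′ to 3′ on the gene's strand with matched letters in capitals. They lie at chr6:7554811-7554878 (Tac1, plus strand), chr13:99900777-99900806 (Cartpt, minus strand), chr6:82402225-82402284 (Tacr1, plus strand) and chr3:134828947-134829006 (Tacr3, plus strand).
Tac1: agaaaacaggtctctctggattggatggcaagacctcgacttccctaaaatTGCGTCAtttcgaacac
Cartpt: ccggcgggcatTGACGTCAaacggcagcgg
Tacr1: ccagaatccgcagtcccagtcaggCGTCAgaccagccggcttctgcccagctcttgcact
Tacr3: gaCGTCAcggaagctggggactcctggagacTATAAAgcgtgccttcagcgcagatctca
Distances are from the RefSeq start, which lies inside the gene span given above by 182 bases for Tac1, 408 for Cartpt and 141 for Tacr1, and at its edge for Tacr3, so the Cartpt window is itself inside that span. The full element stood 112 to 105 bases before the RefSeq start of Cartpt and the variant 199 to 193 bases before that of Tac1. Of 32851 promoter windows of all genes, 1.55% held the full element, 1.75% the variant and 17.8% the core. The core outside these elements stood 43 to 39 bases before the RefSeq start of Tac1, 226 to 222 bases before that of Tacr1 and 58 to 54 bases before that of Tacr3. TATAAA, found in 12.4% of windows, was in that of Tacr3 and no AP-1 motif, found in 6.75%, was in any of the 7. The windows of Pdyn, the only opioid precursor searched, and those of Oprm1 and Oprd1 held no match to any of these motifs. Penk and Oprk1 were not among the 7. A match is a description of these letters and not a site of binding.

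Library totals ran from 12403528 to 22886441 counts. Levels between mice are given as CPM, counts relative to the library total scaled by the trimmed mean of M values. Levels between genes, and sums over genes, are given as deposited FPKM, which divides by transcript length and lacks that scaling. In striatum the median over genes of the average Q140 log2 fold change was 0.081 on log2(FPKM + 0.1), against 0.015 in the fit of counts. FPKM sums compared between genotypes carry that offset. Striatal libraries carried the markers of their tissue: the summed level of 6 general projection neuron markers was 1251 to 2158 FPKM in striatum and 70.17 to 88.52 FPKM in cortex. The summed level of 5 cortical glutamatergic markers was at most 4.179 FPKM in striatum and at least 318.4 FPKM in cortex. Msh6 followed its labels in striatum, at 6.926 to 11.09 CPM in the 16 Msh6-/- mice, 11.96 to 15.58 CPM in the 16 Msh6+/- mice and 14.58 to 20.09 CPM in the 16 others, so reads were still assigned to it in knockouts. The striatal library of Q140 Msh6-/- mouse 21-3 stood apart, with a summed choroid plexus marker level of 2157 FPKM against 4.435 to 27.39 FPKM in the other 47. Results that change without it are given both ways.

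The striatum expressed 8 of the 9 genes above the cortex. In wild-type mice Penk was 62.2-fold, Tacr1 45.7-fold, Tac1 39.2-fold and Oprk1 19.7-fold higher in striatum than in cortex. Tacr3 was 6.92-fold, Oprm1 4.23-fold, Pdyn 3.59-fold and Oprd1 1.52-fold higher, and Cartpt alone was lower, at 0.179-fold. For all 9 the 8 striatal values lay apart from the 8 cortical values, as they did for 42% of the genes tested. The 9 calls, 8 higher and 1 lower, stood beside 72.4% of the 18440 genes tested at an adjusted p under 0.05 (edgeR quasi-likelihood test over 96 libraries, Benjamini-Hochberg adjustment). In Q140 mice all 9 were again called, in the same directions, against 70.8% of genes. There the striatal excess was 26.6-fold for Penk, 46.5-fold for Tac1, 46.1-fold for Tacr1, 21.5-fold for Oprk1, 9.08-fold for Tacr3, 5.78-fold for Oprm1, 3.62-fold for Pdyn and 1.28-fold for Oprd1, while Cartpt was at 0.139-fold.

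**Figure D1:**
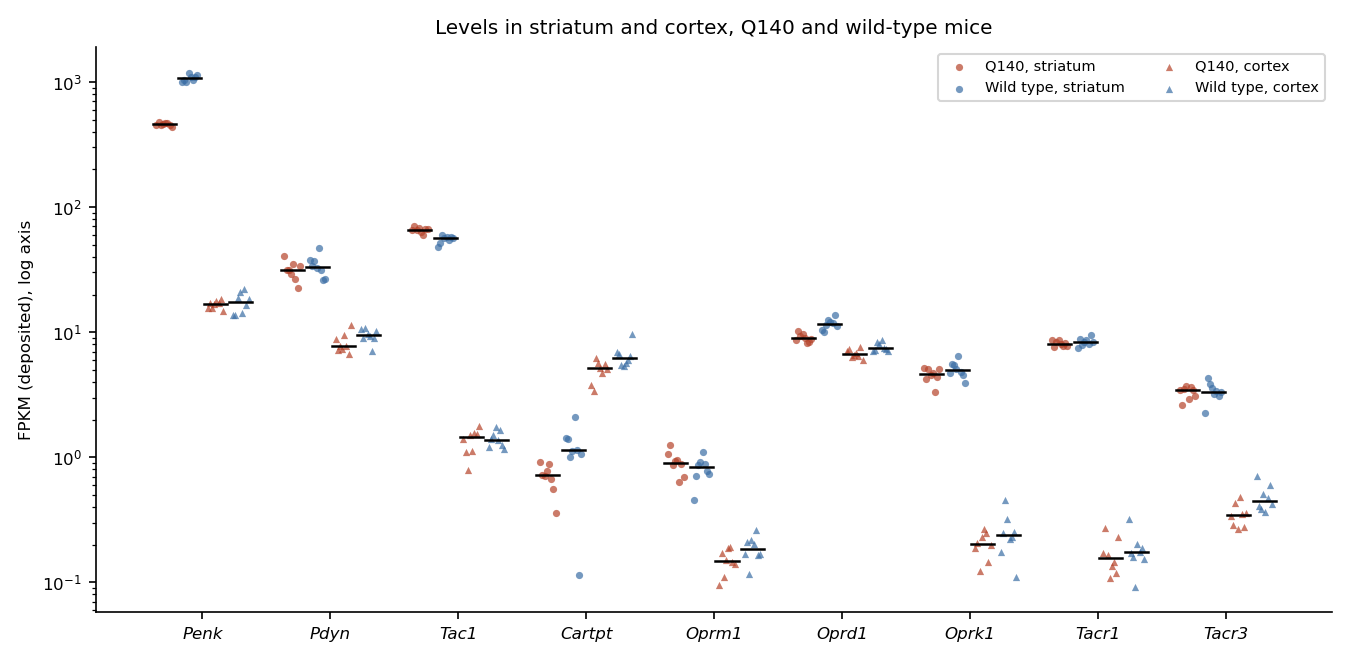
Deposited FPKM of each of the 9 genes on a log axis, 1 point per mouse, for Q140 and wild-type mice in striatum (circles) and cortex (triangles), with the median of 8 mice as a bar. In striatum Penk stands far above the rest, near 459 FPKM in Q140 and 1074 FPKM in wild-type mice, and Cartpt is the gene that is higher in cortex.

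Per transcript length, Penk dominated the set. In wild-type striatum its mean was 1074 ± 68.6 FPKM (SD, n = 8), the 14th highest value of 28219 genes above 0. Tac1 followed at 55.48 FPKM (47.84 to 60.28), Pdyn at 34.01 ± 6.85, Oprd1 at 11.63 ± 1.17, Tacr1 at 8.375 ± 0.616, Oprk1 at 5.059 ± 0.748, Tacr3 at 3.367 ± 0.593, Cartpt at 1.174 ± 0.550 and Oprm1 at 0.8051 ± 0.188 FPKM. Each of the first 5 ranged clear of its neighbours over the 8 mice, Pdyn barely so (25.98 to 47.28 FPKM, against 47.84 to 60.28 FPKM for Tac1). Oprk1 and Tacr3 overlapped, as did Cartpt and Oprm1. In Q140 striatum Penk was still the highest, at 458.8 ± 13.3 FPKM, ahead of Tac1 at 65.63 ± 3.17 FPKM, and Tacr1 (7.630 to 8.688 FPKM) then overlapped Oprd1 (8.164 to 10.15 FPKM). The cortical order was different. In wild-type cortex Penk had 17.28 ± 3.27 FPKM, Pdyn 9.481 ± 1.19, Oprd1 7.639 ± 0.586 and Cartpt 6.525 ± 1.40 FPKM, the ranges of these last 3 overlapping, while Tac1 had 1.410 ± 0.212 FPKM and the other 4 receptors were under 0.711 FPKM in every mouse. The fixed length behind the Cartpt FPKM is 874 bases, against 1277 bases of annotated exons, so its place among the genes is approximate.

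Penk carried the largest striatal change. It fell in Q140 striatum to 693.3 CPM at the lowest, 726.9 at the median and 772.8 at the highest, against 1651, 1798 and 2002 CPM in wild-type striatum. It reached 705.7, 764.3 and 844.7 CPM in Q140 Msh6+/- striatum against 1584, 1674 and 1825 CPM in Msh6+/- striatum, and 691.3, 738.8 and 835.9 CPM in Q140 Msh6-/- striatum against 1675, 1804 and 2015 CPM in Msh6-/- striatum. In all 3 pairs every mouse with the Q140 allele lay below every mouse without it. Pair by pair the log2 values were -1.30 ± 0.04 (± SE; edgeR adjusted p = 2.56e-29), -1.14 ± 0.04 (5.22e-27) and -1.27 ± 0.04 (4.07e-29), and averaged over the pairs Penk was at 0.425-fold (-1.23 ± 0.02, adjusted p = 7.05e-40). By size of the fall this was the 57th of 17503 genes. The spread between mice was narrower too in absolute terms, an SD of 24.8 CPM in Q140 against 131 CPM in wild-type striatum. Over all pairs the contrast was smaller and the SD fell along with the mean. The SD was 45.1 CPM on a mean of 749.8 CPM in the 24 mice with the allele, against 118 CPM on 1765 CPM in the 24 without. In bulk tissue, fewer cells of a type and less RNA per cell cannot be told apart.

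Markers of the neurons that make Penk moved with it, and their part in its fall was not tested. Of 6 indirect-pathway markers 5 were analysed here, and 4 of these (Drd2, Adora2a, Gpr6 and Ptprm) fell while Sp9 had a log2 fold change of 0.03 (adjusted p = 0.525). Their summed level was 251.5 to 289.2 FPKM in the 24 mice with the Q140 allele, against 367.8 to 464.9 FPKM in the 24 without. Adora2a, an adenosine receptor, fell most, by 0.85 on the log2 scale, which is less than Penk's 1.23. Of the 6 direct-pathway markers 4 fell and 2 rose, with a sum of 156.9 to 176.1 FPKM in mice with the allele and 203.9 to 242.9 FPKM in those without. All 6 general projection neuron markers fell (1251 to 1383 FPKM, against 1786 to 2158 FPKM), as did 6 of 7 interneuron, 4 of 4 astrocyte, 2 of 4 oligodendrocyte and 3 of 3 microglial markers, where 23.6% of all genes tested fell. Not all lists were lower. The summed level of 4 cortical interneuron markers (Gad1, Gad2, Vip and Lhx6) had a higher striatal median with the allele, with overlap. It was 185.2 FPKM (178.2 to 191.3) with the allele and 172.2 FPKM (161.6 to 192) without. No marker was at 0 in all striatal libraries.

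Tac1 moved the other way. Its lowest, median and highest values were 198.1, 219.7 and 236 CPM in Q140 striatum against 165.6, 199.6 and 208.7 CPM in wild-type striatum. They were 212.1, 221.6 and 237.4 CPM in Q140 Msh6+/- striatum against 176.6, 190.5 and 209.9 CPM in Msh6+/- striatum, and 214.8, 223.7 and 245.6 CPM in Q140 Msh6-/- striatum against 173.2, 198.9 and 247 CPM in Msh6-/- striatum. The ranges were apart in the Msh6+/- pair and overlapped in the other 2. Tac1 rose by 0.17 ± 0.05 (adjusted p = 0.0077), 0.22 ± 0.05 (0.000609) and 0.16 ± 0.05 (0.00952) on the log2 scale, and over the 3 pairs was at 1.14-fold (0.18 ± 0.03, adjusted p = 5.03e-07). Of the direct-pathway markers that rose with it, Isl1 was at 0.38 ± 0.03 and Ebf1 at 0.08 ± 0.03, whereas Drd1, the D1 receptor, fell by 0.63 and Chrm4, a muscarinic receptor, by 0.69 on the log2 scale.

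Pdyn, expressed by the same class of neuron as Tac1, did not pass the test. It had 63.83, 88.84 and 115.5 CPM (lowest, median, highest) in Q140 striatum against 78.11, 97.1 and 141.1 CPM in wild-type striatum. In Q140 Msh6+/- striatum it had 89.37, 96.28 and 126.2 CPM against 80.46, 97.78 and 114.2 CPM in Msh6+/- striatum, and in Q140 Msh6-/- striatum 83.41, 98.38 and 108.1 CPM against 74.96, 99.97 and 119.6 CPM in Msh6-/- striatum. The groups overlapped throughout. The average log2 fold change was -0.05 with a 95% interval of -0.165 to 0.0591 (adjusted p = 0.457). A fall of the size seen for Penk lies outside that interval.

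**Figure D2:**
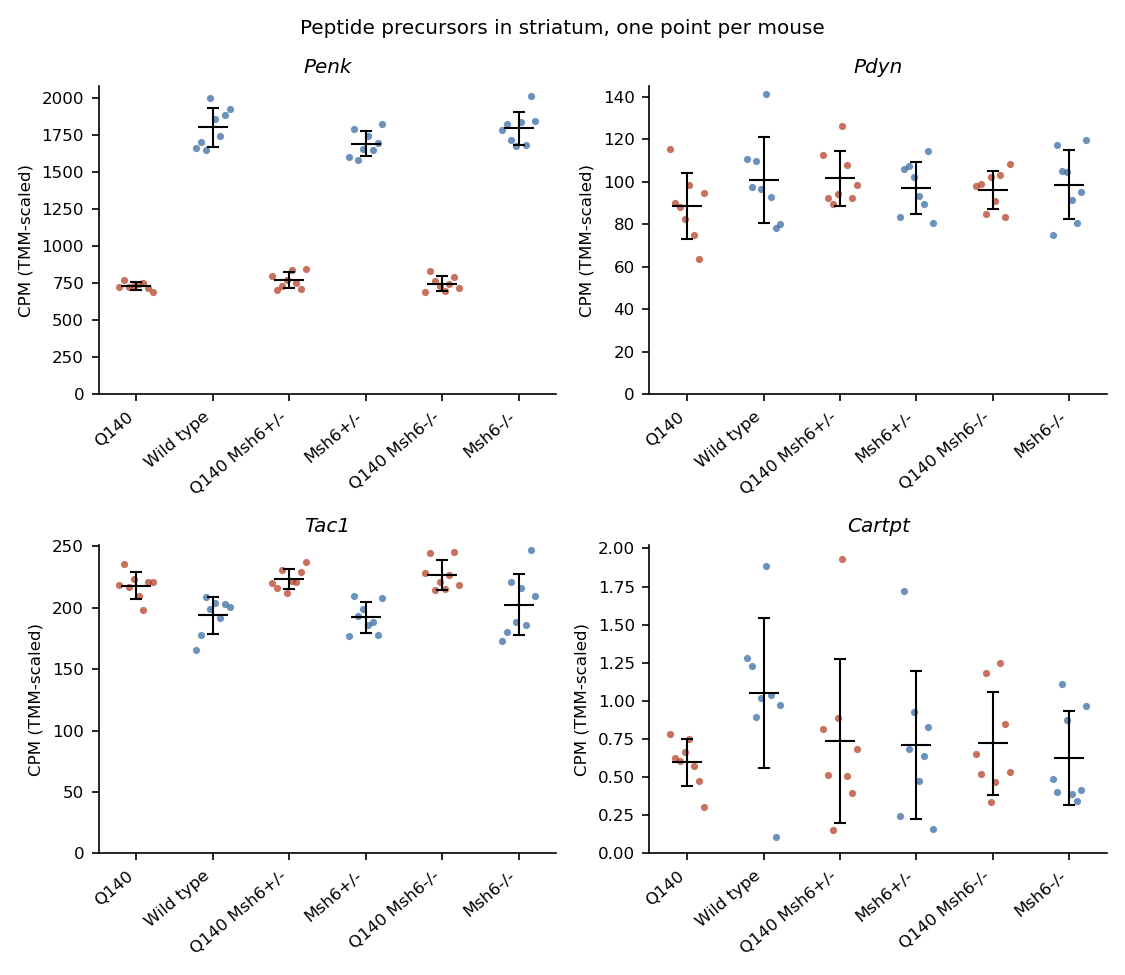
CPM of the 4 peptide precursors in striatum for the 6 genotypes, 1 point per mouse, with mean and SD of 8 mice as bars; axes start at 0. Penk separates mice with the Q140 allele (691.3 to 844.7 CPM) from those without (1584 to 2015 CPM). Tac1 is shifted slightly upward, with overlap in all but the Msh6+/- pair, and Pdyn and Cartpt overlap.

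Cartpt was close to the limit of detection in striatum. It had 0.3053, 0.6154 and 0.7818 CPM in Q140 mice against 0.1049, 1.026 and 1.887 CPM in wild-type mice, which is 5 to 15 counts a library against 2 to 29. The log2 fold change was -0.79 ± 0.36 (adjusted p = 0.0971) there, 0.07 ± 0.38 (0.921) in Msh6+/- and 0.22 ± 0.38 (0.708) in Msh6-/- mice. None passed the test, and the interval of the average was wide, from -0.593 to 0.257, so changes within it are not excluded.

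Penk and Tac1 changed unequally, as their ratio within each library showed. The ratio of Penk to Tac1 FPKM ran from 6.52 to 7.92 in Q140 striatum and from 16.5 to 21.0 in wild-type striatum. It was 6.47 to 7.84 in Q140 Msh6+/- against 17.1 to 19.8 in Msh6+/- striatum, and 6.31 to 7.38 in Q140 Msh6-/- against 16.1 to 21.4 in Msh6-/- striatum. A ratio shows unequal change of its 2 terms only. Of the summed FPKM of Penk, Pdyn and Tac1, which was 555.8 ± 13.5 in Q140 and 1163 ± 68.4 in wild-type striatum, Penk made up 82.5 ± 1.16% in Q140 against 92.3 ± 0.794% in wild-type mice. Tac1 made up 11.8 ± 0.616% against 4.78 ± 0.353%, and Pdyn 5.64 ± 0.971% against 2.94 ± 0.631%. A share depends on every term of the sum, so it can rise where only another term falls. Pdyn itself did not pass the test. In cortex the Penk to Tac1 ratio overlapped between Q140 (8.34 to 20.0) and wild-type mice (9.89 to 15.8).

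Among the receptors Oprd1, a main target of enkephalins, fell. It had 32.13, 35.01 and 40.45 CPM in Q140 striatum against 40.85, 47.86 and 57.6 CPM in wild-type striatum. In Q140 Msh6+/- striatum it had 30.82, 35.67 and 39.14 CPM against 38.94, 44.6 and 47.72 CPM in Msh6+/- striatum, and in Q140 Msh6-/- striatum 32.81, 34.85 and 38.7 CPM against 37.57, 47.68 and 49.69 CPM in Msh6-/- striatum. Only the first pair was free of overlap, and in the other 2 the ranges crossed only at their edges. On the log2 scale the pairs gave -0.44 ± 0.05 (adjusted p = 4.78e-09), -0.33 ± 0.05 (3.31e-06) and -0.36 ± 0.05 (4.84e-07), and the average was 0.772-fold (-0.37 ± 0.03, adjusted p = 8.33e-15). The fall was smaller than that of its ligand precursor: Oprd1 FPKM divided by Penk FPKM was 0.0173 to 0.0213 in Q140 and 0.00975 to 0.0124 in wild-type striatum.

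Oprm1, which marks the patch compartment of the striatum, was low and variable. It had 4.955, 7.059 and 9.908 CPM in Q140 striatum against 3.735, 6.852 and 9.175 CPM in wild-type striatum, and 4.93, 7.28 and 10.01 CPM in Q140 Msh6+/- against 4.184, 5.445 and 9.222 CPM in Msh6+/- striatum. In Q140 Msh6-/- striatum it had 5.459, 7.434 and 9.57 CPM against 3.024, 4.508 and 9.844 CPM in Msh6-/- striatum. All 3 pairs overlapped. The test called the last pair (0.52 ± 0.16, adjusted p = 0.0111) and the average (1.21-fold, 0.28 ± 0.09, adjusted p = 0.0106), but not Q140 against wild type (0.11 ± 0.16, 0.671) or the Msh6+/- pair (0.21 ± 0.16, 0.355).

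The annotation places exons of Ipcef1, on the opposite strand, over exons of Oprm1, and whether the authors' counting used strand is not given in the sources used here. Ipcef1, named for this overlap after its values were seen, encodes a protein that binds cytohesin exchange factors. It had 10.12, 11.63 and 13.59 CPM in striata with the Q140 allele against 3.337, 4.652 and 6.963 CPM in those without, and rose by 1.31 ± 0.05 on the log2 scale (adjusted p = 2.97e-27). In cortex, where its median was 133.9 CPM with the allele and 144.3 CPM without, Oprm1 had medians of 1.156 and 1.268 CPM. Its part in the Oprm1 call was not tested. Penk exons are overlapped in the same way by A830012C17Rik, which was at most 0.5584 CPM in striata with the allele and 0.5853 CPM in those without.

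Oprk1, the dynorphin receptor, had 29.73, 41.31 and 46.13 CPM in Q140 striatum against 37.55, 46.65 and 60.58 CPM in wild-type striatum, and did not pass the test in any pair, though Q140 against wild type passed when only those libraries were fitted (-0.23, adjusted p = 0.0458). Its average log2 fold change was -0.15 ± 0.07 (adjusted p = 0.0538), just short of the threshold, and passed with relative log expression scaling (-0.16, adjusted p = 0.0417) and without the filter on low counts (-0.15, adjusted p = 0.0399). Groups in the other pairs, at 35.88 to 60.9 CPM against 38.63 to 64 CPM and 33.72 to 58.67 CPM against 37.76 to 56.66 CPM, overlapped almost wholly.

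Tacr1, the substance P receptor, had 49.1, 51.27 and 54.76 CPM in Q140 striatum against 49.01, 56.26 and 64.05 CPM in wild-type striatum. The log2 fold change was -0.12 ± 0.05 (adjusted p = 0.0452) there, -0.06 ± 0.05 (0.368) in the Msh6+/- pair and -0.12 ± 0.05 (0.0324) in the Msh6-/- pair, and -0.10 ± 0.03 (0.0013) on average. This small fall depended on the scale, since on log2(FPKM + 0.1) the average was -0.03 ± 0.03 (adjusted p = 0.396, limma). Both called pairs lost their calls in alternatives. Q140 against wild type lost it in the limma fits (adjusted p = 0.517 to 0.617), and in edgeR without the filter on low counts (0.0524) and with the animal number prefix as a covariate (0.108). The Msh6-/- pair lost it in the limma fits (adjusted p = 0.456 to 0.553), and in edgeR with only the compared libraries (0.0659) and with the prefix (0.05). Tacr3, which had 9.845, 12.64 and 13.52 CPM in Q140 striatum against 8.595, 12.99 and 16.2 CPM in wild-type striatum, was called in no pair, and its average had an interval of -0.113 to 0.113.

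**Figure D3:**
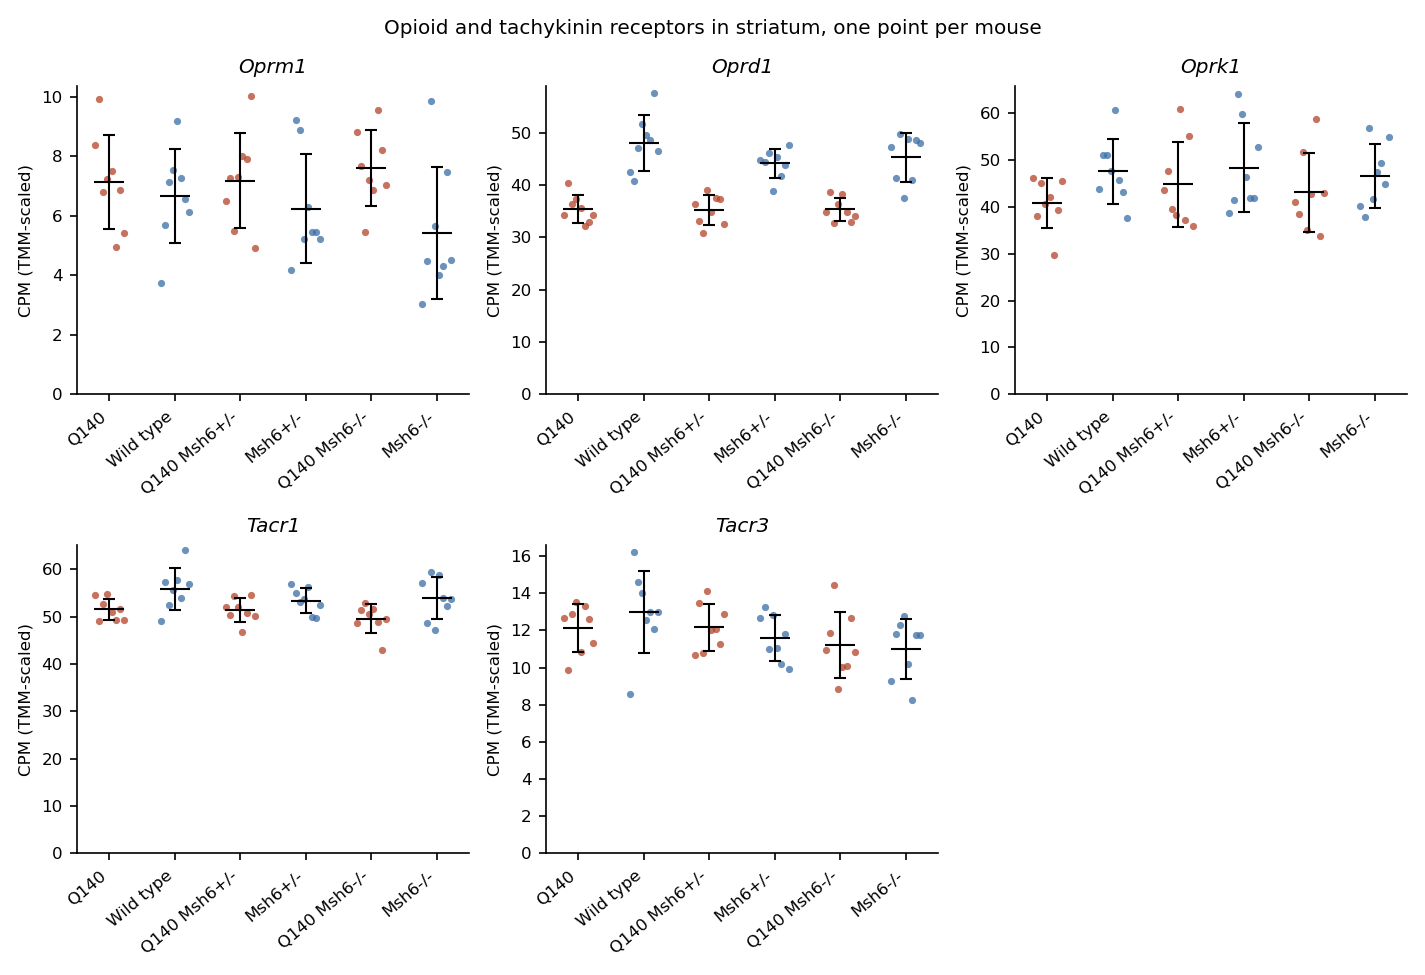
CPM of the 5 opioid and tachykinin receptors in striatum for the 6 genotypes, 1 point per mouse, with mean and SD of 8 mice as bars; axes start at 0. Oprd1 is lower with the Q140 allele (30.82 to 40.45 CPM, against 37.57 to 57.6 CPM). Its ranges cross at their edges in all but Q140 against wild type. The other receptors overlap between each Q140 group and its control.

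Counted over the 9 genes, Q140 against wild type in striatum called 4 (Tac1 higher; Penk, Oprd1 and Tacr1 lower), where 29.7% of 17503 genes were called. The Msh6+/- pair called 3 (Tac1 higher; Penk and Oprd1 lower) beside 31.2% of genes, and the Msh6-/- pair 5 (Tac1 and Oprm1 higher; Penk, Oprd1 and Tacr1 lower) beside 33.0%. The average over the pairs called the same 5 beside 52.7%, or 5098 genes higher and 4127 lower. With so many genes called, these counts are close to the background, and it is the size of the Penk fall that is far from the centre of the distribution. On the FPKM scale the split of the average over all genes was 8237 higher and 2530 lower. In that fit, on log2(FPKM + 0.1), Penk was at -1.16, Tac1 at 0.26, Oprd1 at -0.30 and Oprm1 at 0.32, each still called, and Tacr1 was not.

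**Figure D4:**
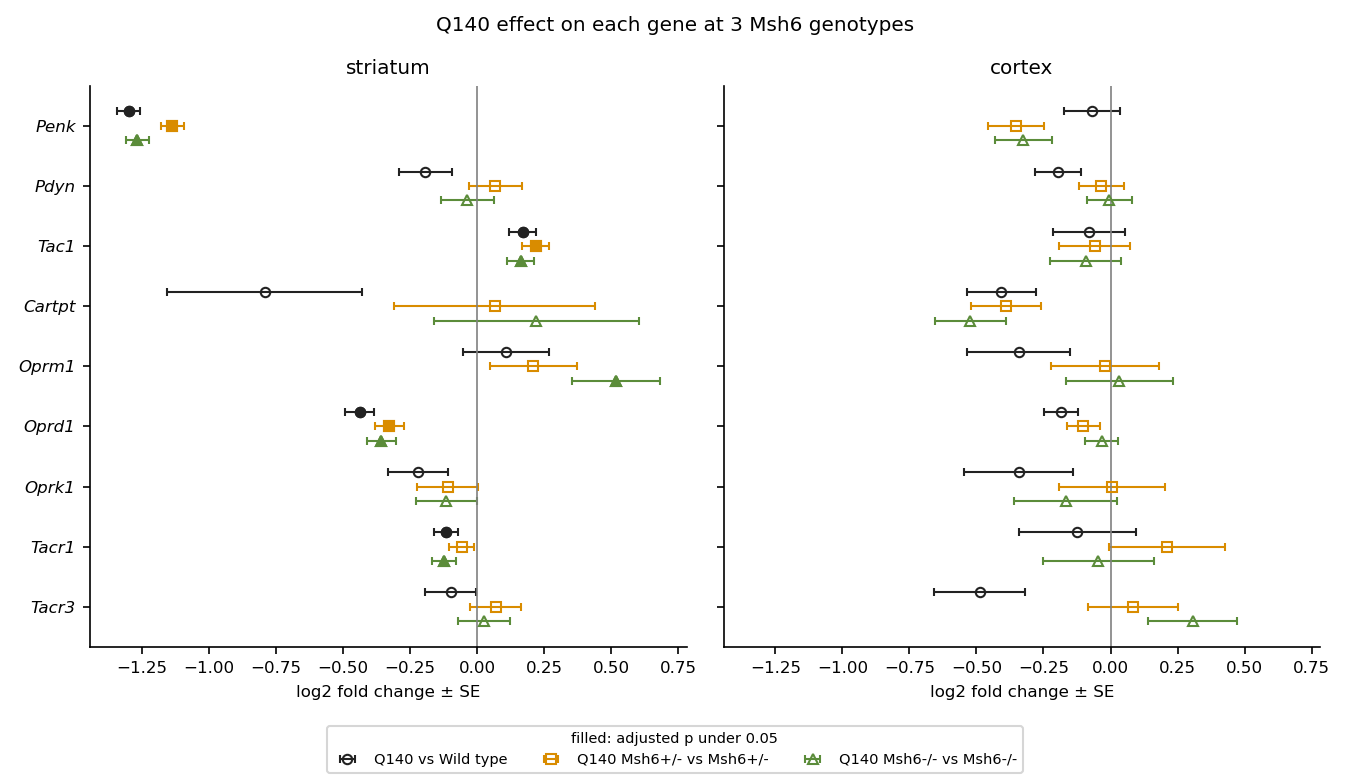
Log2 fold change ± SE of the Q140 allele for each gene in striatum (left) and cortex (right) at the 3 Msh6 genotypes; filled symbols have an adjusted p under 0.05 and the vertical line marks no change. Filled symbols appear in striatum only, in all 3 pairs for Penk at -1.30 to -1.14, Oprd1 at -0.44 to -0.33 and Tac1 at 0.16 to 0.22. Tacr1 is also filled in Q140 against wild type and in the Msh6-/- pair, and Oprm1 in the Msh6-/- pair.

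The cortex was far quieter. Q140 against wild type called 0 of the 9 genes there, as did the Msh6+/- pair and the Msh6-/- pair, beside 0.0170%, 0.193% and 0.136% of 17622 genes. At an unadjusted p under 0.05 edgeR gave 8 of the 27 values (29.6%, against 7.79% of the values of all genes), all lower with Q140: Cartpt in all 3 pairs, Penk in the Msh6+/- and Msh6-/- pairs, and Pdyn, Tacr3 and Oprd1 in Q140 against wild type. DESeq2 called Cartpt in the Msh6-/- pair (adjusted p = 0.0401), 1 of the 9 values for which it gave an adjusted p. It gave none for the other 18, which are all those of Q140 against wild type and of the Msh6+/- pair.

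Averaged over the 3 pairs, where 1.54% of cortical genes were called (83 higher and 188 lower), 2 of the 9 genes fell, Cartpt and Penk. Cartpt had 2.955, 4.453 and 5.473 CPM in Q140 cortex against 4.682, 5.437 and 8.554 CPM in wild-type cortex, 2.442, 3.987 and 4.972 CPM in Q140 Msh6+/- against 2.749, 5.53 and 6.42 CPM in Msh6+/- cortex, and 2.292, 3.593 and 4.582 CPM in Q140 Msh6-/- against 4.36, 5.116 and 6.49 CPM in Msh6-/- cortex. The groups overlapped in every pair. The pair values were -0.41 ± 0.13, -0.39 ± 0.13 and -0.52 ± 0.13, and the average was 0.737-fold (-0.44 ± 0.08, adjusted p = 0.000206).

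Cortical Penk had 23.98, 27.44 and 29.95 CPM in Q140 mice against 22.47, 28.72 and 36.2 CPM in wild-type mice, 16.95, 26.04 and 30.5 CPM in Q140 Msh6+/- against 22.51, 30.49 and 40.28 CPM in Msh6+/- mice, and 18.61, 24.62 and 28.34 CPM in Q140 Msh6-/- against 23.67, 31.23 and 41.13 CPM in Msh6-/- mice. All 3 pairs overlapped. The average was 0.842-fold (-0.25 ± 0.06, adjusted p = 0.0189), made up of -0.07 ± 0.11 in Q140 against wild type and -0.35 ± 0.10 and -0.32 ± 0.10 in the other pairs, and on the FPKM scale it was not called (adjusted p = 0.0723 to 0.117). Cortical glutamatergic markers were 318.4 to 374.2 FPKM with the allele and 332.2 to 376.4 FPKM without, and 0 of 5 were called. The split of all called genes was 99 higher and 85 lower on the FPKM scale.

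**Figure D5:**
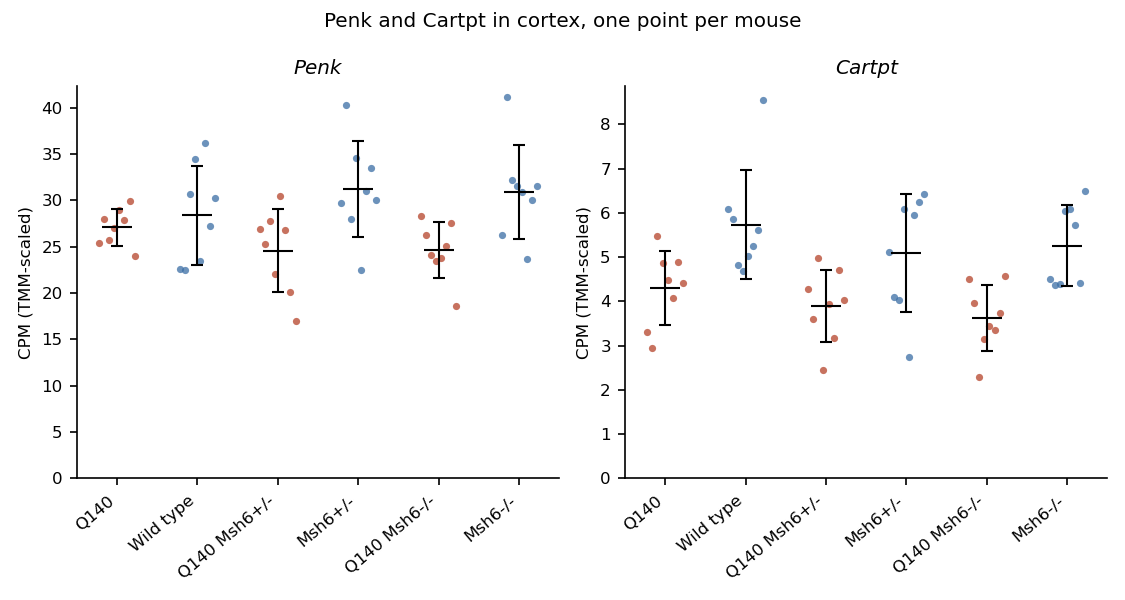
CPM of Penk and Cartpt in cortex for the 6 genotypes, 1 point per mouse, with mean and SD of 8 mice as bars; axes start at 0. Both genes overlap between each Q140 group and its control, with Cartpt at 2.292 to 5.473 CPM with the allele and 2.749 to 8.554 CPM without.

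The Q140 effect differed between the tissues for 4 of the 9 genes, beside 37.5% of 18440 genes (3939 higher and 2980 lower; on the FPKM scale 6105 and 2035). Striatum minus cortex, the difference of the average log2 fold changes was -0.98 ± 0.06 for Penk (adjusted p = 6.26e-25), -0.26 ± 0.05 for Oprd1 (5.64e-06), 0.26 ± 0.08 for Tac1 (0.00496) and 0.39 ± 0.16 for Oprm1 (0.0478). The Oprm1 call rested on single choices: without the striatal library of mouse 21-3 it was 0.35 (adjusted p = 0.082), with relative log expression scaling 0.37 (0.0625), without the filter 0.37 (0.0936) and without the sex term 0.38 (0.0609). Its overlapping gene Ipcef1 had a difference of 1.44 ± 0.05. For Cartpt the difference was 0.28 ± 0.21 (adjusted p = 0.323), and it was called in 1 alternative, limma on log2(FPKM + 1), at 0.31 ± 0.12 (adjusted p = 0.0362). Whether its cortical fall differs from its striatal value thus depends on the fit.

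Loss of Msh6 was not seen to move any of the genes. In striatum 0 of 9 were called for Msh6-/- against wild type (0.0971% of genes), for Msh6+/- against wild type (0.0114%), for Q140 Msh6-/- against Q140 (0.177%) and for Q140 Msh6+/- against Q140 (0.00571%). In cortex 0 of 9 were called in the same comparisons, beside 0.131%, 0.00567%, 0.153% and 0.0113%. Of the 72 values edgeR gave 9 at an unadjusted p under 0.05 (12.5%, against 5.41% of the values of all genes) and DESeq2 called 0. The lowest adjusted p was 0.638. For Penk in Q140 Msh6-/- against Q140 striatum the log2 fold change was 0.03, with an interval of -0.0539 to 0.110, and for Oprd1 it was -0.0041 with an interval of -0.111 to 0.103. These intervals lie well short of the Q140 effects on both genes. For Oprm1 the interval was -0.199 to 0.421 and for Cartpt -0.476 to 1.03, which are too wide to exclude changes of the size seen with Q140.

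The interaction asks directly whether the Q140 effect differed between Msh6 genotypes. None of the 9 genes was called in the Msh6-/- or Msh6+/- interaction in striatum or in cortex, where 0% of genes were called in all 4. Of these 36 values 3 had an unadjusted p under 0.05 (8.33%, against 4.72% over all genes) and DESeq2 called 0. They were Penk in striatum of Msh6+/- mice (0.16 ± 0.06, adjusted p = 0.996) and Tacr3 in cortex of Msh6-/- (0.80 ± 0.24, adjusted p = 1) and Msh6+/- mice (0.57 ± 0.24, adjusted p = 0.922). Tacr3 was at 1.006 to 1.786 CPM in Q140 cortex against 1.392 to 2.686 CPM in wild-type cortex, and at 1.251 to 2.881 CPM in Q140 Msh6-/- against 1.17 to 1.718 CPM in Msh6-/- cortex. The 2.881 CPM came from mouse 38-1 alone, where the next value of that group was 1.866 CPM. The Oprm1 interaction in striatum of Msh6-/- mice was 0.41 ± 0.23 (adjusted p = 0.998), so its call in that pair alone was not shown to set the pair apart.

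Sex bore on few of the genes. In cortex 1 of 9, Cartpt, was lower in females, at 2.442, 4.323 and 6.237 CPM in 24 females against 2.292, 4.926 and 8.554 CPM in 24 males (-0.28 ± 0.07, adjusted p = 0.0163), beside 5.89% of 18033 genes. In striatum edgeR called 0 of 9 beside 4.99% of 17947 genes. Oprd1 (0.10 ± 0.03, adjusted p = 0.0515) and Oprm1 (0.29 ± 0.09, 0.0555) came close, had unadjusted p values of 0.00266 and 0.00301, and were both called by DESeq2 (adjusted p = 0.0414 and 0.0317). Oprm1 had 3.024, 7.28 and 9.908 CPM in females against 3.735, 5.472 and 10.01 CPM in males. The Q140 effect in females minus that in males was called for 0 of 9 genes and 0% of all genes in either tissue, with 1 of the 18 values at an unadjusted p under 0.05, 5.56% against 3.73% over all genes (Tac1 in cortex, -0.35 ± 0.15, adjusted p = 0.999) and 0 called by DESeq2.

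Genes around the 9 in the same pathways moved in both directions in striatum. Of 15 genes for prohormone processing and secretory granules 6 rose and 5 fell on average with Q140, with a median log2 fold change of 0.044 beside 0.0153 over all genes. Over all genes in striatum 29.1% rose and 23.6% fell, 52.7% together. The striatal counts of this list and of those that follow are to be read against those shares. Pcsk1 and Pcsk2, the convertases that cut the opioid and tachykinin precursors, parted: Pcsk1 had 11.42, 13.57 and 18.94 CPM in Q140 striatum against 7.586, 9.976 and 15.63 CPM in wild-type striatum and rose (0.59 ± 0.07, adjusted p = 3.93e-10), whereas Pcsk2 had 416.5, 430.3 and 440.5 CPM against 462.3, 483.8 and 533.4 CPM and fell (-0.18 ± 0.02, 9e-13). Scg2, a granule protein, rose (0.36 ± 0.04, adjusted p = 5.32e-11).

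Of 11 enzymes that degrade peptides 5 rose and 4 fell, with a median of 0.007. Ece2, a metallopeptidase of the endothelin-converting family that cleaves neuropeptides, rose most of the list (0.54 ± 0.03, adjusted p = 1.99e-23). It had 51.8, 55.56 and 61.34 CPM in Q140 striatum against 35.51, 38.17 and 42.66 CPM in wild-type striatum. The largest change of the list, Ace, named after its values were seen, was a fall of the angiotensin-converting enzyme gene (-0.61 ± 0.08, adjusted p = 1.6e-08). Nln, which encodes neurolysin, and Rnpep, aminopeptidase B, rose by 0.16 ± 0.02 and 0.20 ± 0.03 (adjusted p = 1.1e-09 and 3.76e-09).

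Of 21 genes for receptor signalling 8 rose and 8 fell, with a median of 0.000. The falls included regulators that switch off inhibitory G proteins. Rgs9 had 556, 594 and 628.9 CPM in Q140 striatum against 911.7, 953.1 and 1007 CPM in wild-type striatum (-0.70 ± 0.02, adjusted p = 1.36e-33), and Rgs4 had 404.8, 469.3 and 521.2 CPM against 688.6, 790.7 and 896.9 CPM (-0.79 ± 0.03, 2.83e-26). Gnb5, the beta subunit that partners Rgs9, fell by 0.40 ± 0.03 (adjusted p = 2.8e-18). Rgs9 is also in the projection neuron marker list.

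Of 8 relatives of the opioid and tachykinin genes 4 passed the filter in striatum and 2 rose, Oprl1, the nociceptin receptor (0.34 ± 0.04, adjusted p = 7.15e-09), and Ackr3, an atypical chemokine receptor that also binds opioid peptides (0.14 ± 0.05, 0.0222). Pnoc, Tac2, Tac4 and Tacr2 did not pass it. Oprl1 thus moved against Oprd1, at 22.45, 27.5 and 31.4 CPM in Q140 striatum against 16.6, 20.39 and 27.68 CPM in wild-type striatum. Of 11 other neuropeptide genes 6 passed the filter, 2 rose and 3 fell. Nts, the neurotensin precursor, had 2.96, 3.895 and 5.434 CPM in Q140 striatum against 1.091, 1.418 and 4.23 CPM in wild-type striatum (average 1.12 ± 0.11, adjusted p = 3.31e-12), the largest change by log2 fold change in these 5 lists. Cck rose (0.28 ± 0.07, adjusted p = 0.000583) and Npy, an interneuron peptide, fell (-0.18 ± 0.06, 0.00541). Cortical glutamatergic markers stood beside these rises at 0.6553 to 4.179 FPKM in striata with the allele and 0.541 to 1.213 FPKM in those without, with 2 of 4 tested called higher, and their part was not tested. In cortex 0 of these genes rose on average and 5 fell, 2 for processing and 3 for signalling, among them Rgs4 (-0.15 ± 0.02, adjusted p = 0.000126). Over all cortical genes tested 0.471% rose and 1.07% fell on average.

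The genes whose pattern over the 12 genotype and tissue groups was most like that of each member were taken from 12500 genes, by the root mean square difference of centred mean log2 CPM. For Penk they were Clspn (0.267), Ido1 (0.311) and Ptprv (0.326). The 9 members were left out of that search, and of the distances between members only that of Tac1 and Tacr1 (0.14) was under those of the genes named here. For Tac1 the nearest others were Ecel1 (0.175), Chat (0.206) and Slc5a7 (0.235), and for Pdyn B3galt5 (0.0703), Cdh13 (0.0723) and Dgat2 (0.082). For Cartpt they were Hunk (0.157), Adcy8 (0.18) and Adcy1 (0.19). Oprd1 was matched by Dek (0.0423), Gpr158 (0.05) and Mtcl1 (0.0522), Oprm1 by Cftr (0.147), Mpp7 (0.15) and Dlx5 (0.155), and Oprk1 by Rarb (0.107), Gng7 (0.109) and Actn2 (0.148). The nearest others to Tacr1 were Ecel1 (0.16), Htr1d (0.172) and Ido1 (0.204), and to Tacr3 Arhgdib (0.133), Tmem158 (0.138) and Zfp503 (0.14). The tissue difference dominates the distance for genes such as Penk, so a small value does not by itself mean a like response to Q140.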

How the data were processed

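Reads per gene were deposited by the authors as integer counts, beside FPKM values, each being a count scaled by 1 constant gene length and by its library's sum. RNeasy kits were used for RNA and a stranded TruSeq kit for the libraries, per the labels' protocols. Alignment to GRCm38 (mm10) used STAR 2.7.5c, SAMtools 1.10 and HTSeq 0.12.3, per the submitters' processing notes. Neither the strandedness chosen for HTSeq nor its annotation is stated in what was used here. Coordinates and overlaps come from GENCODE M21 (GRCm38).

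The 48 libraries of each tissue were fitted with edgeR 4.0.16 (R 4.3.3) quasi-likelihood, with TMM scaling, a term per genotype and sex, and genes kept by filterByExpr (minimum count 10, minimum total 15). All 9 genes passed this filter in both tissues. Every comparison is a contrast of that fit, the average Q140 effect being the mean of the 3 pairs. Sex contrasts came from a genotype-by-sex fit and tissue contrasts from a fit of all 96 libraries. P values were adjusted by Benjamini-Hochberg across every gene a comparison tested, and calls made under 0.05. SE is the log2 fold change divided by the square root of F, and intervals are 95%. Alternatives were RLE scaling, no filter, DESeq2 1.42.0, an adjusted p of 0.1, limma-trend (version 3.58.1) for log2(FPKM + 0.1) or log2(FPKM + 1), dropping sex, a covariate for the prefix of the animal number, fitting the compared libraries alone, and leaving out the striatal library of mouse 21-3.

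No 2 libraries were identical, and the chi-square per degree of freedom between replicates was at least 2.849. Sex labels matched expression in 96 of 96 libraries. The labels' animal numbers pair each striatum with the cortex of the same mouse. Over 16806 genes, which are not independent, the residuals of a mouse's tissues had a median r of 0.145 (-0.04 to 0.261), against -0.004 for other mice. The 9 genes, the gene lists, the marker lists and the choice of mouse 21-3 were made with earlier results of these data known. Beside the 9 genes, up to 3 called genes of smallest adjusted p per list and the 3 nearest patterns per gene are named. Scripts were tested on simulated data.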

Additional observations from a re-analysis of the deposited data

Results flagged for a closer look

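By the test of the difference itself, the Q140 effect was called different between striatum and cortex for Penk, Tac1, Oprm1 and Oprd1, beside 37.5% of 18440 genes. Striatum minus cortex on the log2 scale, the values were -0.98 for Penk, 0.26 for Tac1, 0.39 for Oprm1 and -0.26 for Oprd1. The Oprm1 call was near the threshold (edgeR adjusted p = 0.0478) and was lost under the single choices given above, where its overlap with Ipcef1 is also described. Among the 108 groups of 8 mice examined for the 9 genes, 5 had a mouse whose gap to the next value was over 0.526 of the group's range. Chance gives this in about 1 in 20 groups, so the number of such groups is no more than chance gives.

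Mouse 38-1, a Q140 Msh6-/- animal, had 2 of the 5 values, both in cortex. Its Tac1 was low at 2.503 CPM, where the next was 4.129 and the highest 5.296 CPM (gap over range 0.582), and its Tacr3 was high at 2.881 CPM, where the next was 1.866 and the lowest 1.251 CPM (0.623). In striatum Cartpt of Q140 Msh6+/- mouse 17-1 was 1.931 CPM, where the next was 0.8871 CPM (0.588), in a library whose summed cortical glutamatergic marker level of 2.546 FPKM was the highest of its group. The part of that level in the Cartpt value was not tested. Striatal Tacr1 of Q140 Msh6-/- mouse 32-4 was 42.97 CPM, where the next was 48.59 CPM (0.563). Cortical Cartpt of wild-type mouse 21-1 was 8.554 CPM, where the next was 6.082 CPM (0.638).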

How the results depend on the processing

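Over all member comparisons and alternatives, 2353 values kept direction and side of the threshold, 20 lost the call, 15 gained it and 37 changed sign, of which 0 were called in either fit. DESeq2 gave no adjusted p for another 22, which were 18 in cortical Q140 against wild type and Q140 Msh6+/- against Msh6+/- and the rest in the cortical average. Counts of the 9 genes called moved by over 1.5 times in 3 comparisons, and by 1 gene in others through Tacr1, Oprk1, Oprm1 and Cartpt, as given with those genes. Striatal females against males gave 0, and 1 without the filter (Oprm1) and 2 with DESeq2, with the animal prefix and at an adjusted p of 0.1. Cortical Q140 Msh6-/- against Msh6-/- gave 0, and 1 with DESeq2 and with the prefix (Cartpt). The cortical average gave 2, and 1 (Cartpt) in each of the 3 limma fits. Tacr1 in Q140 against wild-type striatum lost its call without the filter (adjusted p = 0.0524), with the prefix (0.108) and with limma (0.517 to 0.617). The cause was not tested.

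Counts over all genes moved by over 1.5 times as follows. Striatum: Msh6-/- against wild type 17, and 27 with DESeq2 and 26 at 0.1; Msh6+/- against wild type 2, and 0 with limma or the prefix and 1 with only the compared libraries; Q140 Msh6-/- against Q140 31, and 50 without the filter, 12 to 15 with limma, 14 without mouse 21-3 and 15 with only the compared libraries; the Msh6-/- interaction 0, and 1 with DESeq2 or at 0.1; females against males 896, and 1525 at 0.1. Cortex: Q140 against wild type 3, and 22 with DESeq2, 7 with the prefix and 1 with only the compared libraries; Q140 Msh6+/- against Msh6+/- 34, and 145 with DESeq2, 10 to 14 with limma, 9 with only the compared libraries and 67 at 0.1; Q140 Msh6-/- against Msh6-/- 24, and 14 to 15 with limma and 14 with only the compared libraries; the average 271, and 412 with DESeq2, 131 with unfiltered limma and 517 at 0.1; Msh6+/- against wild type 1, and 2 without the filter or with only the compared libraries; Q140 Msh6+/- against Q140 2, and 1 with only the compared libraries; the Msh6+/- interaction 0, and 1 with DESeq2 or at 0.1; females against males 1062, and 1784 at 0.1.

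With the animal as a replicate block the tissue difference in the Q140 effect was called for 7604 genes in place of 6919, wild-type striatum against cortex for 13677 in place of 13351 and Q140 striatum against cortex for 13392 in place of 13057. The block changed no call of the 9 genes, with Penk at -0.99 ± 0.06 and Oprm1 at 0.40 ± 0.15 (adjusted p = 0.0286).

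Depth limits Cartpt in striatum and Oprm1, Oprk1, Tacr1 and Tacr3 in cortex, with medians of 0.6578 to 2.127 CPM over 48 mice.

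Sign changes with limma were Tacr1 0.0066 and 0.0059 (striatum Q140 Msh6+/- against Msh6+/-), Pdyn 0.0478 and 0.0462 (striatum Q140 Msh6-/- against Msh6-/-), Pdyn 0.0212 and 0.0206 (striatum average Q140 effect), Tacr3 0.0698 and 0.0533 (striatum average Q140 effect), Tac1 -0.0060 and -0.0059 (striatum female against male). Others with limma were Pdyn 0.0109 and 0.0096 (cortex Q140 Msh6-/- against Msh6-/-), Tacr1 0.0359 (cortex Q140 Msh6-/- against Msh6-/-), Tac1 0.0135 and 0.0033 (cortex Q140 Msh6+/- against Q140), Tac1 0.0013 (cortex Q140 effect in Msh6-/- minus in Msh6+/+), Oprk1 -0.0392 (average Q140 effect in striatum minus in cortex). Sign changes with the prefix were Cartpt -0.0077 (striatum Q140 Msh6+/- against Msh6+/-), Tacr3 0.0047 (striatum average Q140 effect), Tacr3 -0.0103 (striatum Q140 Msh6+/- against Q140), Tac1 0.0153 (striatum Q140 effect in Msh6-/- minus in Msh6+/+), Tac1 0.0049 (cortex Q140 against wild type). Others with the prefix were Oprm1 0.0187 (cortex Q140 Msh6+/- against Msh6+/-), Oprm1 -0.0037 (cortex Q140 Msh6-/- against Msh6-/-), Tac1 0.0465 (cortex Msh6-/- against wild type), Tac1 0.0341 (cortex Msh6+/- against wild type), Tac1 -0.1127 (cortex Q140 effect in Msh6+/- minus in Msh6+/+). Sign changes with mouse 21-3 left out were Tacr3 0.0023 (striatum average Q140 effect).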
